A study of Mus musculus with 22 samples.

Results

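Splenic monocytes cultured with oxidised low-density lipoprotein (ox-LDL) were compared with vehicle-treated monocytes across all genes, with attention to granulocyte and erythroid transcripts. The libraries were chosen by title: Monocytes 1 to 6 received vehicle and Monocytes 7 to 11 received ox-LDL, which makes 11 of the 22 libraries in the series. All 11 were labelled as primary monocytes from the spleen of male wild-type mice, of the C57BL/6 strain per the series description, and they were cultured without a differentiating agent. The ox-LDL dose was 50 µg/mL, and both treatments lasted 24 hours. The other 11 libraries were macrophages made from such monocytes by 5 days of PMA, a phorbol ester, at 200 ng/mL, and then given vehicle (5 libraries) or ox-LDL (6 libraries). They enter only the last comparison below. The comparison in monocytes asked which transcripts differ between foamy and non-foamy cells. The labels give no vehicle composition, no sorting step and no statement on whether libraries came from separate mice or cultures, so p-values speak only of the spread among these samples, which may be technical.

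Monocytes are blood-borne phagocytes that also rest in the spleen in large numbers. Scavenger receptors such as CD36 bind ox-LDL, the particle is degraded in lysosomes, and its cholesterol is stored in lipid droplets after esterification. Oxidised lipids are known to engage the antioxidant factor NRF2, and sterols engage the liver X receptors (LXR) and restrain the sterol-synthesis factor SREBP2. Neutrophils, which store proteins in granules made at successive stages of their maturation, and red cells, which carry haemoglobin, are neighbours of monocytes in the spleen.

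Total counts ran from 42.0 to 48.3 per vehicle library and from 38.9 to 48.8 per ox-LDL library, in units of 1000000 counts. Levels between genes are given in TPM (transcripts per 1000000, which divides by gene length), and levels of a gene between libraries in CPM (counts per 1000000). The labelled cell type was checked against marker genes. The monocyte and macrophage genes Lyz2 (lysozyme) and Csf1r (the colony-stimulating factor 1 receptor) stood at 8106 to 29456 and 237 to 535 TPM. The classical monocyte genes Ly6c2 and Ccr2 stood at 20.05 to 226 and 3.61 to 11.6 TPM. Of genes of mature dendritic cells, Ccr7, the receptor that guides these cells to lymph nodes, ran from 6044 to 12615 TPM, above Csf1r in each of the 11 libraries, and the actin-bundling gene Fscn1 from 1303 to 3519 TPM, while Ccl17 and Il4i1 reached at most 1.12 and 0.307 TPM. Cd83 ran from 1171 to 3944 TPM, Cacnb3 from 286 to 959 and Ccl22 from 88.5 to 214 TPM. Among further dendritic cell markers, Flt3 ran from 66.3 to 181 TPM, Batf3 from 85.1 to 161 and Zbtb46 from 23.3 to 81.7 TPM. Xcr1 and Clec9a, which define cross-presenting dendritic cells, and Siglech, of plasmacytoid dendritic cells, all stayed under 1 TPM. Dendritic cell markers summed to 17086 to 24028 CPM with vehicle and 14664 to 22142 CPM with ox-LDL, and monocyte markers to 6120 to 17728 and 7189.9 to 22743 CPM. The dendritic cell sum was above the monocyte sum in all libraries but ox-LDL replicates 10 and 11. These markers therefore do not single out monocytes, and the name monocyte is used below only because the labels give it. The part of cells other than monocytes in the results was not tested.

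The libraries stood apart in neutrophil and erythroid transcripts, and not by treatment. The summed CPM of 47 neutrophil genes ran from 41935 to 60050 in vehicle replicates 5 and 6 and ox-LDL replicates 10 and 11, and from 7143 to 8600 in the other 7. Among those 7, the sum of 56 erythroid genes ran from 1539 to 1873 CPM in vehicle replicates 1 and 2 and ox-LDL replicate 7, and from 10394 to 16355 CPM in vehicle replicates 3 and 4 and ox-LDL replicates 8 and 9. These 3 sets of libraries, called neutrophil-high, erythroid-low and erythroid-high here, were defined from the libraries' own transcripts at the widest gaps, of 2.29 and 2.47 on the log2 scale, and the labels name no such sets. Each set holds both treatments, but the erythroid-low set has only 1 ox-LDL library. Other markers moved with the sets too. B-cell markers summed to 2128 to 2806 CPM in the erythroid-low set and 821 to 1513 CPM elsewhere. Monocyte markers, Lyz2 among them, summed to 16023 to 22743 CPM in the neutrophil-high set and 6120 to 10314 CPM elsewhere. Lyz2 alone made up most of each sum, with 12088 to 18495 CPM in that set and 3476 to 7255 CPM elsewhere. Eosinophil markers summed to 217 to 302 CPM in the neutrophil-high set and 51.3 to 88.7 CPM elsewhere. Of these markers Cd24a had the highest median level, 62.6 TPM, while Siglecf and Il5ra had 3.75 and 1.13 TPM. The sum was not read as a measure of eosinophils. Fewer cells of a type and less RNA per cell cannot be told apart in bulk RNA.

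**Figure D1:**
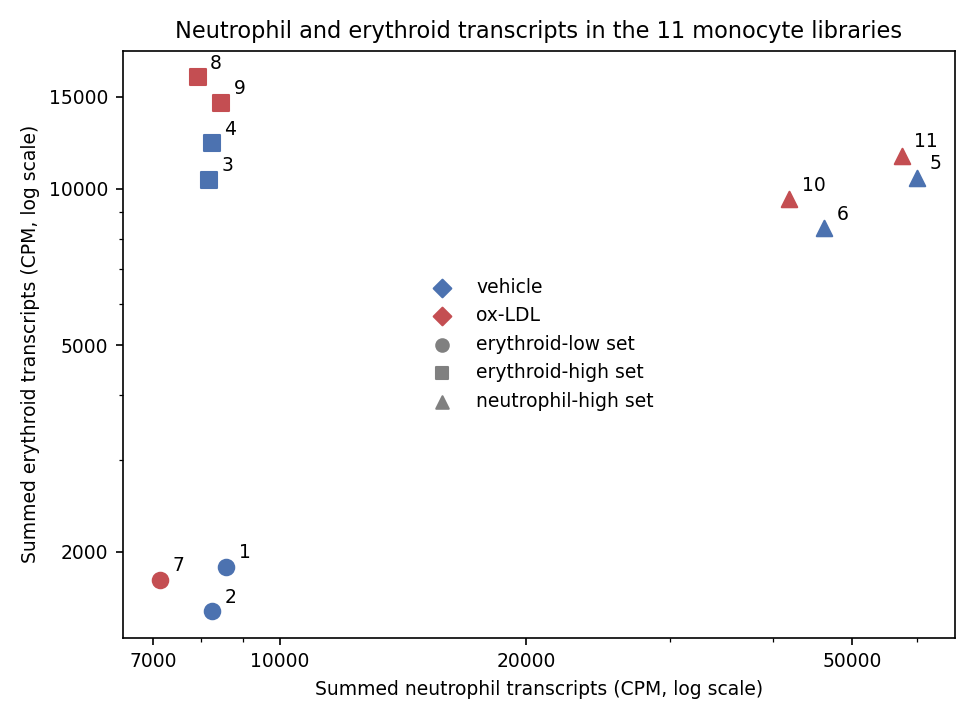
Summed CPM of the erythroid genes (vertical axis, log scale) against that of the neutrophil genes (horizontal axis, log scale) in the 11 monocyte libraries, with replicate numbers, colour for treatment and marker shape for the library set. The libraries form 3 clumps, each with vehicle and ox-LDL libraries, with neutrophil sums of 41935 to 60050 CPM in 1 clump and erythroid sums of 1539 to 1873 CPM in another.

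Since the sets were made from these genes, the gene values between sets are a description with no test. Nearly the whole neutrophil programme was higher in the neutrophil-high set. All 11 genes of secondary granules, all 12 genes of tertiary granules and alarmins whose mean reached 1 CPM, and 14 of 15 surface and signalling genes were above all other 7 libraries in each of its 4 libraries. The median fold was 5.19 for secondary granules, 7.46 for tertiary granules and 4.47 for surface genes. Ngp, a neutrophilic granule protein, measured 1555, 1601, 1310.0, 1354, 10312 and 7873 CPM in vehicle replicates 1 to 6 and 1319.8, 1344, 1753, 6776 and 10401 CPM in ox-LDL replicates 7 to 11. S100a8, a subunit of the alarmin calprotectin, measured 936, 746, 1201, 1038, 9972 and 6357 CPM with vehicle and 696, 1074, 978, 6088 and 10292 CPM with ox-LDL. Replicates 5, 6, 10 and 11 were the high ones for both genes, and the treatments overlapped. Ly6g, the surface protein by which mouse neutrophils are sorted, ran from 70.8 to 142 CPM in that set and from 8.34 to 15.2 CPM elsewhere.

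Of the 4 primary granule genes whose mean reached 1 CPM, Serpinb1a (148 to 209 CPM against 35.3 to 63.4) and Ms4a3 (1.23 to 3.79 CPM against at most 0.870) followed the neutrophil-high set too, whereas Mpo and Elane did not follow it in each library. Mpo (myeloperoxidase) measured 40.2 CPM in ox-LDL replicate 10 and at most 2.94 CPM in any other library. Elane (neutrophil elastase) measured 16.7 CPM in ox-LDL replicate 10, 5.44 in vehicle replicate 5 and at most 0.866 CPM elsewhere. The library that was highest in these early genes was the lowest of the 4 neutrophil-high libraries in Ngp and S100a8. Asprv1, listed as a neutrophil gene, was not higher in the neutrophil-high set (1.12-fold) and measured 355, 293, 327, 375, 483 and 337 CPM in vehicle replicates 1 to 6 and 230.3, 290.3, 208, 229.9 and 281 CPM in ox-LDL replicates 7 to 11. Every ox-LDL library lay under every vehicle library for that gene.

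Of the 42 neutrophil genes whose mean reached 1 CPM, 21 (50%) had the same sign of the ox-LDL difference in each of the 3 sets, 4 higher and 17 lower, beside 38.5% of all genes tested. The examples that follow are not typical of the 42. Cxcr2, the chemokine receptor that draws neutrophils from the marrow, measured 75.6, 73.2, 76.8, 90.6, 521 and 404 CPM with vehicle and 47.6, 47.6, 54.8, 307 and 335 CPM with ox-LDL. Its differences in mean log2 CPM (ox-LDL minus vehicle) were -0.64, -0.70 and -0.52 in the erythroid-low, erythroid-high and neutrophil-high sets. Within each set all ox-LDL libraries were under all vehicle libraries, although the treatments overlapped over the 11. Mmp8, neutrophil collagenase, went the other way, with 466, 509, 406, 428, 2250.4 and 2179 CPM for vehicle and 619, 587, 787, 2537 and 3487 CPM for ox-LDL, or differences of 0.34, 0.70 and 0.43. Lcn2, the siderophore-binding lipocalin of secondary granules, differed by -1.03, -0.83 and -0.45, and Clec4d, a C-type lectin receptor, by 0.53, 0.64 and 0.42. Padi4 and Fpr1, which serve chromatin release and formyl-peptide sensing, differed by at most 0.03 in any set. These genes helped to define the sets, so no test is given for them, and Asprv1, Cxcr2, Mmp8, Lcn2 and Clec4d were picked out after their values were seen.

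Erythroid transcripts differed between the erythroid-high and erythroid-low sets in few genes. The adult globins Hba-a1, Hba-a2, Hbb-bs and Hbb-bt were 17.2 to 20.8 times as high in the erythroid-high set. Hba-a1 measured 281, 146, 3088, 3744, 2913 and 2266 CPM with vehicle and 225, 5258, 5124, 2711 and 3356 CPM with ox-LDL, so replicates 1, 2 and 7 were low and the other 8 high. Alas2, the erythroid enzyme that starts haem synthesis, was 13.1 times as high, and Bpgm, which makes bisphosphoglycerate, 4.99 times. The median over 6 red cell membrane genes was 0.982-fold, and over 10 erythroid regulators 0.946-fold. Gata1 and Klf1, which drive erythroid gene expression in nucleated precursors, reached at most 1.16 and 0.514 CPM in any library, and Icam4 had no counts. Near-identical copies (Hba-a1 with Hba-a2, Hbb-bs with Hbb-bt) may share reads. Nfe2, listed as an erythroid regulator, moved with the neutrophil genes instead, at 167 to 219 CPM in the neutrophil-high set and 30.3 to 36.4 CPM elsewhere.

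**Figure D2:**
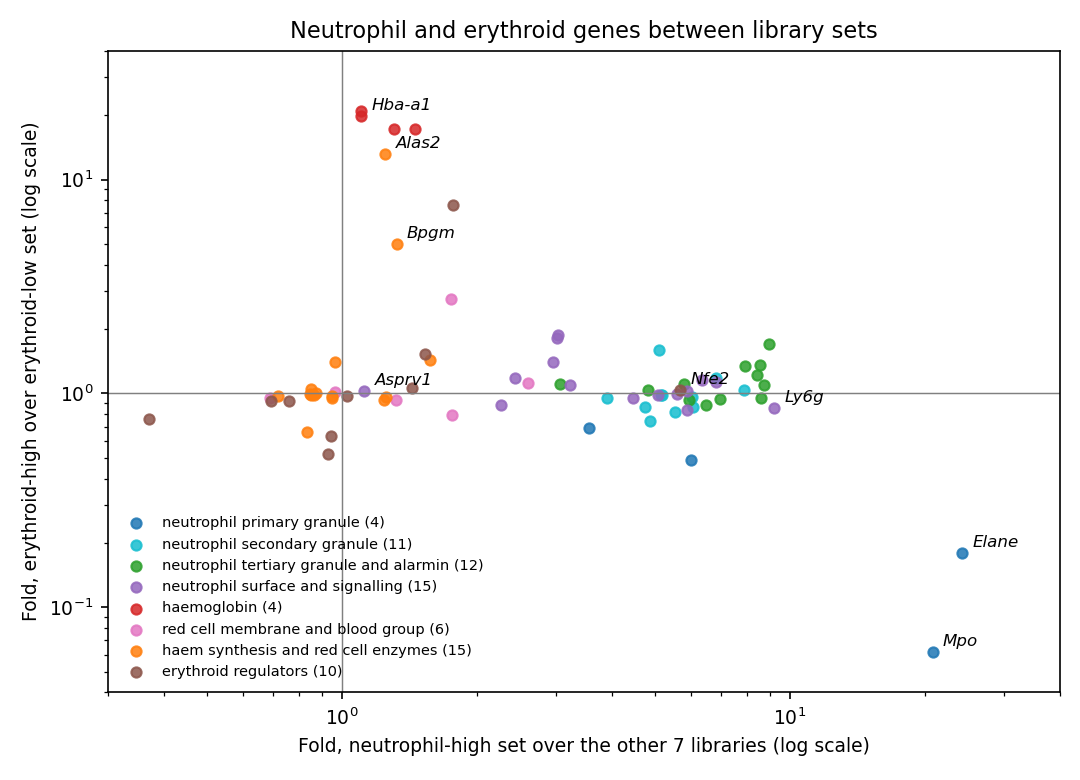
Fold between library sets for neutrophil and erythroid genes whose mean reached 1 CPM: the neutrophil-high set over the other 7 libraries (horizontal, log scale) and the erythroid-high over the erythroid-low set (vertical, log scale), 1 point per gene, coloured by list with the number of genes in brackets. Secondary and tertiary granule genes lie to the right, between 0.744 and 1.70 on the vertical axis, Mpo lies at 0.0616 on it, and the 4 adult globins, Alas2 and Bpgm lie between 4.99 and 20.8 on it.

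Without regard to the sets, 4 genes rose with ox-LDL and none fell (edgeR quasi-likelihood test, Benjamini-Hochberg adjusted p under 0.05, here termed called). These were 4 of 16575 genes tested, or 0.0241%, while 1718 (10.4%) had an unadjusted p under 0.05. All 4 had an adjusted p of 0.0263. Cd36 (ENSMUSG00000002944; chromosome 5, 17781690 to 17888801 on GRCm38), the scavenger receptor and fatty acid transporter, measured 219.9 CPM in the lowest vehicle library, a median of 247 and 396 in the highest, and 507, 839, 745, 919 and 1168 CPM in ox-LDL replicates 7 to 11. Its log2 fold change was 1.58 ± 0.22 (± is the SE here and for all changes below). Plin2 (ENSMUSG00000028494; chromosome 4, 86648386 to 86670060), a protein on the surface of lipid droplets, measured 467 CPM in the lowest vehicle library, a median of 553 and 622 in the highest, against 873, 1376, 1694, 1025 and 1337 CPM with ox-LDL, a change of 1.19 ± 0.17. Akr1b8 (ENSMUSG00000029762; chromosome 6, 34354119 to 34368463), which reduces lipid aldehydes, measured 9.54 CPM in the lowest vehicle library, a median of 14.0 and 16.6 in the highest, against 25.8, 41.0, 36.8, 35.5 and 63.4 CPM, a change of 1.57 ± 0.21. Mmp12 (ENSMUSG00000049723; chromosome 9, 7344381 to 7369499), the macrophage elastase, measured 80.2 CPM in the lowest vehicle library, a median of 105 and 144 in the highest, against 206, 295, 304, 212 and 338 CPM, a change of 1.35 ± 0.18. In each of these genes the ox-LDL libraries all lay above the vehicle libraries, and the erythroid-low replicate 7 was the lowest of the ox-LDL libraries.

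Leaving out vehicle replicate 1, 2, 4, 5 or 6, or else replicate 8, 9 or 11 of ox-LDL, left no call, against 1 without vehicle replicate 3, 7 without ox-LDL replicate 7 and 8 without ox-LDL replicate 10. DESeq2 called 161 genes, 94 higher and 67 lower. The groups did not overlap in 150 genes with higher ox-LDL values (0.905% of those tested) and 111 with lower ones (0.67%).

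With the library set as a factor in the same test, 127 genes rose (0.684% of 18567 tested) and 76 fell (0.409%), and 2866 (15.4%) had an unadjusted p under 0.05. The 203 genes included all 4 above. Mmp8 and Cxcr2 are among the 203 but belong to the lists that define the sets, so their calls are not read as tests. Scaling by total counts without TMM factors gave 77 higher and 76 lower, so the excess of higher genes depends on the scaling. At least 2-fold changes were found in 25 of the 127 (19.7%) and in 28 of the 76 (36.8%). All 203 (100.0%) had the same sign in each of the 3 sets, as did 38.5% of all genes tested. The groups did not overlap over the 11 libraries in 79 of them (38.9%), and in 0.819% of all genes tested here with higher and 0.609% with lower ox-LDL values. The 203 were selected by a test on these same libraries and sets. Both shares therefore largely follow from the selection and are no further support. Single libraries moved the count: it was 29 without vehicle replicate 3, 34 without vehicle replicate 4, 71 without vehicle replicate 6, 458 without vehicle replicate 5, and with ox-LDL replicates 7, 8, 9, 10 or 11 left out it was 64, 66, 58, 598 or 50. In further fits, chosen with the data in view, 334 genes (94 higher and 240 lower) were called in the 7 libraries outside the neutrophil-high set and 36 (27 and 9) in the 8 libraries outside the erythroid-low set. Under each of the 20 alternatives, 18 of the 61 genes named by rule and called here were called again, among them Cd36, Plin2, Akr1b8, Mmp12, Ptgr1, Angptl2, Ednrb, Lpl, Ccnd1, Zfp217 and Oasl2. Fold changes below come from this fit, except in the comparison with macrophages. List counts below stand beside the shares over all genes tested, 0.684% rising and 0.409% falling.

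**Figure D3:**
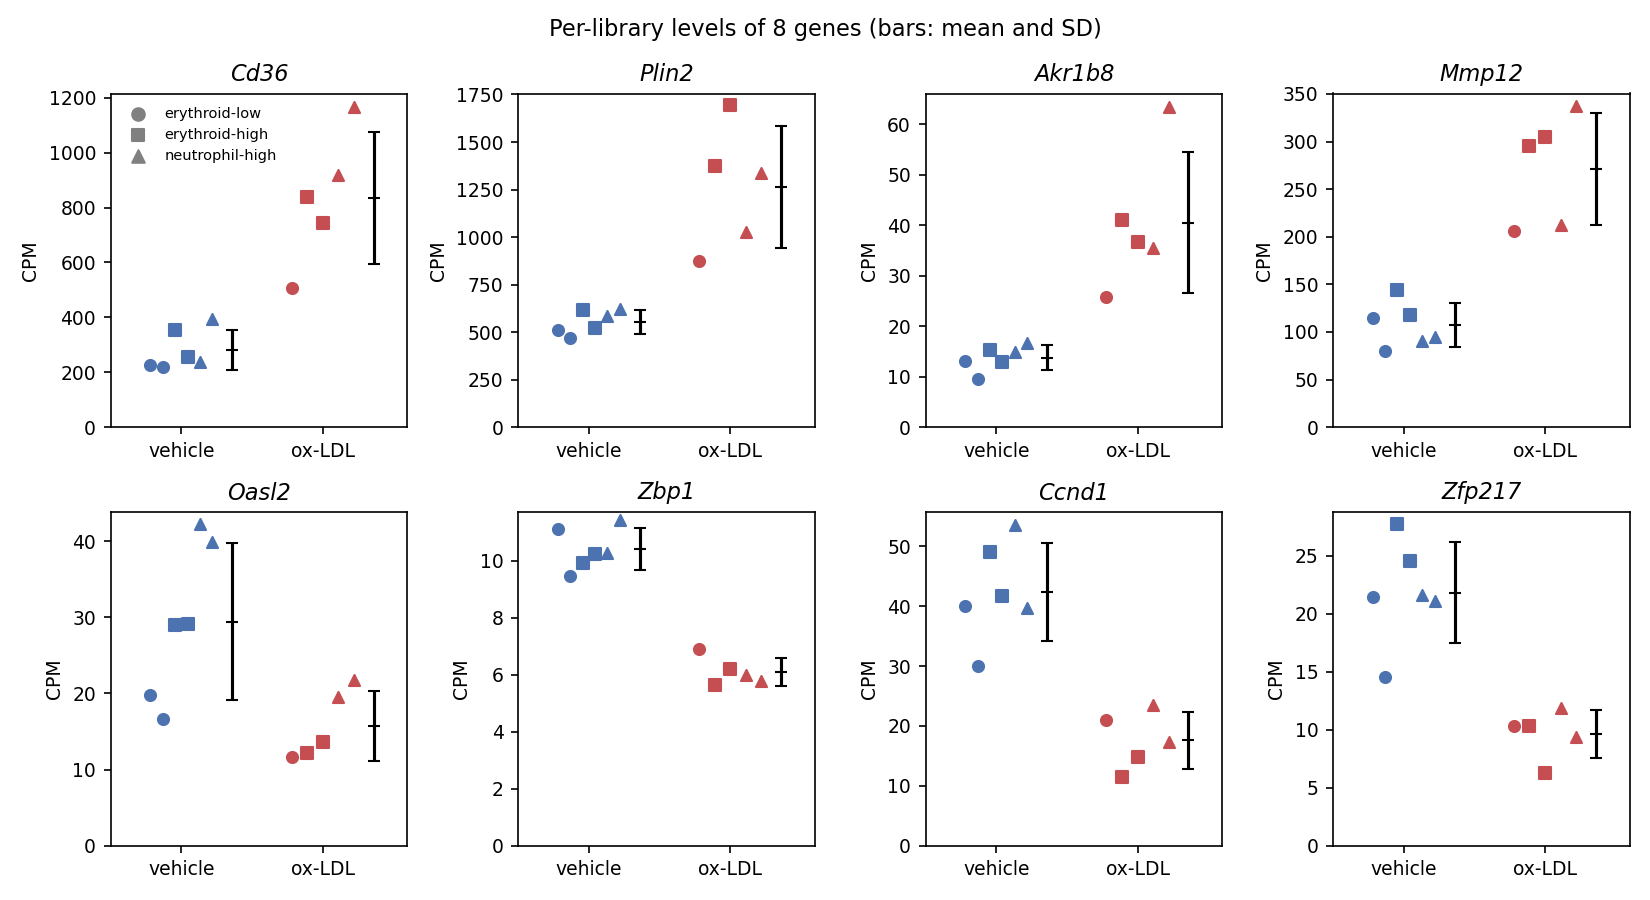
Levels of 8 genes in CPM (vertical axes, from 0) in the 6 vehicle and 5 ox-LDL monocyte libraries, with marker shape for the library set and bars for mean and SD. The ox-LDL points lie above all vehicle points for Cd36, Plin2, Akr1b8 and Mmp12, and below them for Zbp1, Ccnd1 and Zfp217, while Oasl2 overlaps between treatments but not within a set.

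Genes that mark lipid-laden macrophages of plaque and fat tissue had the highest share of calls. Of 27 such genes tested, 11 rose (40.7%) and none fell, with a median log2 fold change of 0.56 against -0.01 over all genes tested. Beyond Cd36 (now 1.47 ± 0.15, adjusted p = 0.00134), Plin2 (1.12 ± 0.13, adjusted p = 0.00148) and Mmp12 (1.31 ± 0.15, adjusted p = 0.00148) the 11 were Gpnmb, Spp1, Lgals3, Lpl, Syngr1, Atp6v0d2, Ctsb and Capg. Lpl, lipoprotein lipase, measured 240.0 CPM in the lowest vehicle library, a median of 255 and 357 in the highest, and 442, 509, 385, 481 and 579 CPM with ox-LDL, without overlap. Its change was 0.83 ± 0.13 (SE; adjusted p = 0.0107). Lgals3, galectin-3, a lectin of activated phagocytes, ran from 3250.0 to 4430.0 CPM with vehicle and from 5128 to 7622 CPM with ox-LDL, again apart. Gpnmb, a glycoprotein of lipid-laden macrophages, measured 1341, 1122, 1445, 1274, 1292 and 2432 CPM in vehicle replicates and 1443, 2666, 2253, 4114 and 5247 CPM in ox-LDL replicates, and there the treatments overlapped. Spp1 (osteopontin) rose by 0.91 ± 0.16 (SE; adjusted p = 0.0212) from levels that followed the sets, 13.9 to 55.6 CPM with vehicle and 22.4 to 139 CPM with ox-LDL. Trem2, the lipid receptor used to define such macrophages, did not pass (0.46 ± 0.17, adjusted p = 0.202). The count of 11 was 4, 4 and 6 when vehicle replicate 3, 4 or 6 was left out and 7, 5 and 4 when replicate 8, 9 or 11 of ox-LDL was, and it was 8 in the 7 libraries outside the neutrophil-high set.

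Among 24 uptake receptors 3 rose, Cd36, Lpl and Msr1, and none fell, with a list median of 0.06. Msr1, the class A scavenger receptor, changed by 0.85 ± 0.16 (SE; adjusted p = 0.0224). Among 33 genes of lipid droplets and fatty acid use 3 rose and none fell: Plin2, Soat1, which esterifies cholesterol for storage, by 0.79 ± 0.14 (SE; adjusted p = 0.0218), and Angptl4, an inhibitor of lipoprotein lipase, by 1.06 ± 0.15 (SE; adjusted p = 0.0054). The median of that list was 0.14. Of 20 LXR targets 1 rose, the cholesterol exporter Abcg1, by 0.73 ± 0.13 (SE; adjusted p = 0.0176). Abcg1 measured 82.7, 70.3, 67.6, 68.9, 44.3 and 53.9 CPM in vehicle replicates and 99.4, 104, 129, 79.9 and 103 CPM in ox-LDL replicates, apart within each set and overlapping over the 11. Its partner Abca1 gave -0.10 ± 0.28 (adjusted p = 0.903). Of 27 sterol synthesis and uptake genes 1 fell, Srebf2, which encodes SREBP2, with a change of -0.85 ± 0.16 (SE; adjusted p = 0.0256). Srebf2 measured 397 CPM in the lowest vehicle library, a median of 510.0 and 626 in the highest, and 280.0, 312, 188, 386 and 281 CPM with ox-LDL, all under the vehicle libraries. The list median was -0.14.

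Of 38 antioxidant genes of the NRF2 programme, 12 rose (31.6%) and none fell; the list median was 0.44. The 12 were Akr1b8, the glutathione synthesis genes Gclc and Gclm, Srxn1, Prdx1, Cat, Me1, Esd and the glutathione transferases Gsta3, Gstm1, Gstm2 and Gstm3, whose near-identical copies may share reads. Prdx1 (ENSMUSG00000028691; chromosome 4, 116685544 to 116700822), a peroxidase that removes hydrogen peroxide, measured 1222, 911, 1377, 1037, 1702 and 1593 CPM in vehicle replicates and 1509, 2682, 2245, 2357 and 4868 CPM in ox-LDL replicates, a change of 0.95 ± 0.18 (SE; adjusted p = 0.0243). Only replicate 7, at 1509 CPM, fell within the vehicle range. Srxn1, which repairs overoxidised peroxiredoxins, measured 182 CPM in the lowest vehicle library, a median of 197 and 271 in the highest, and 295, 336, 314, 398 and 424 CPM with ox-LDL, a change of 0.75 ± 0.11 (SE; adjusted p = 0.00855) without overlap. Gclc, the catalytic subunit of the enzyme that begins glutathione synthesis, rose by 0.71 ± 0.12 (SE; adjusted p = 0.0115) and ran from 121 to 239 CPM with vehicle and from 241 to 356 CPM with ox-LDL, also apart. Hmox1, haem oxygenase 1, and Nqo1 did not pass, with 0.52 ± 0.16 (adjusted p = 0.119) and 0.50 ± 0.12 (adjusted p = 0.0568). Left out singly, vehicle replicates 3, 4 and 6 gave 3, 3 and 6 calls in this list, and ox-LDL replicates 7, 8, 9 and 11 gave 6, 5, 7 and 5. In the 7 libraries outside the neutrophil-high set 8 were called, and in the 8 libraries outside the erythroid-low set 2.

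NRF2 with its small MAF partners is known to bind an antioxidant response element, so promoter windows were searched for the letters TGACNNNGC on both strands, which can overlap an AP-1 element (TGANTCA). Windows ran from 250 bases before to 50 bases after a RefSeq start and exist for 27025 symbols on GRCm38.p6. The letters were in 14.0% of all symbols, in 10 of 32 genes of the list with a window (31.2%) and in 5 of the 11 called members with one (45.5%): Gclm, Gsta3, Me1, Prdx1 and Srxn1. They were also in 17 of 90 genes that rose (18.9%), in 14 of 60 that fell (23.3%) and in 12 of 41 interferon-response genes (29.3%). The longer form TGACTCAGC was in 0.503% of symbols, and in Me1 and Prdx1 of the list. The Prdx1 window (chr4:116685349-116685648, plus strand) is shown because it holds that longer form, on the reverse strand 133 bases before the start, in capitals.
Prdx1: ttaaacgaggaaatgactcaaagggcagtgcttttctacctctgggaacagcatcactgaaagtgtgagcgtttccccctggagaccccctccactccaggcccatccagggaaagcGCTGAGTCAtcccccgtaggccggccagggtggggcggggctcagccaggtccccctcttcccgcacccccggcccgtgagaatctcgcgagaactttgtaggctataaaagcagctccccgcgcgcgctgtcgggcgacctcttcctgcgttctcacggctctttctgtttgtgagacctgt
A match describes letters in this window and does not show that a factor binds there. Cd36, Plin2 and Akr1b8 held none of the 8 motifs searched. The windows shown here and below were chosen after their genes' values were seen.

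**Figure D4:**
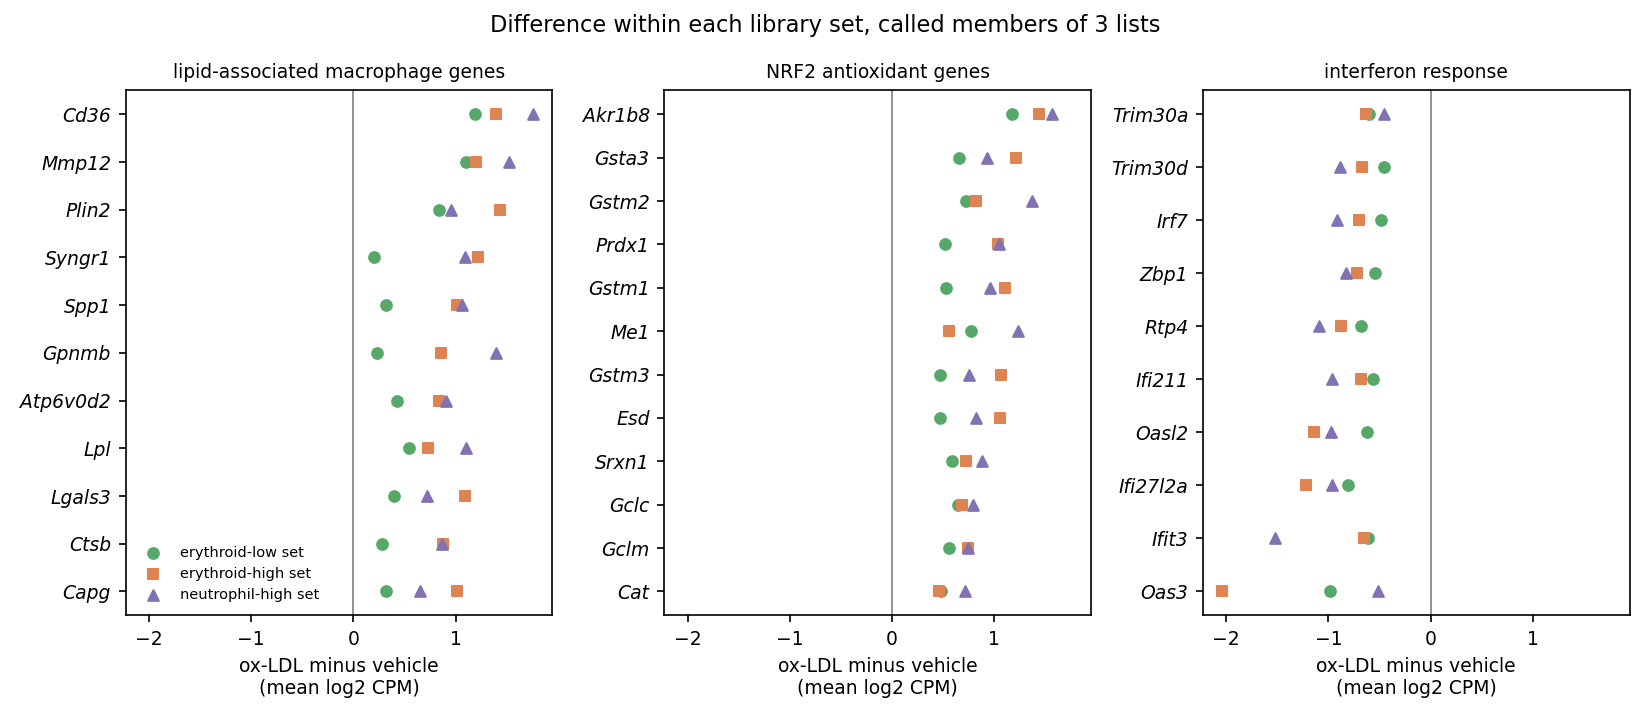
Difference in mean log2 CPM (ox-LDL minus vehicle, horizontal axis) within each library set for the called members of 3 lists, 1 row per gene and 1 marker per set. All markers of lipid-associated and antioxidant genes lie to the right of 0 and all markers of interferon-response genes to the left. The genes were selected by a test on these same libraries, so the shared sign is no further support.

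Of 46 lysosomal genes tested, 5 rose and none fell, Ctsb, Ctsk, Gla, Atp6v0d2 and Atp6v1c1, beside 0.684% of all genes tested that rose. A positive value was found in 40 of the 46, with a list median of 0.23, and in 9159 of all 18567 genes tested. Gla, alpha-galactosidase A, which splits glycosphingolipids, measured 47.3 CPM in the lowest vehicle library, a median of 59.5 and 70.1 in the highest, and 97.4, 104, 102, 92.9 and 109.6 CPM with ox-LDL, a change of 0.79 ± 0.12 (SE; adjusted p = 0.00887). Atp6v1c1, a subunit of the proton pump that acidifies lysosomes, measured 168 CPM in the lowest vehicle library, a median of 196 and 204 in the highest, and 266, 317, 361, 267 and 388 CPM, a change of 0.72 ± 0.12 (SE; adjusted p = 0.0144). Ctsb, cathepsin B, measured 3687 CPM in the lowest vehicle library, a median of 5033 and 6822 in the highest, and 7939, 7868, 9262, 6871 and 8938 CPM, a change of 0.74 ± 0.13 (SE; adjusted p = 0.0176). For all 3 every ox-LDL library lay above every vehicle library. Ctsk, cathepsin K, a protease of matrix breakdown, was low and rose by 1.40 ± 0.19 (SE; adjusted p = 0.00412). It ran from 2.74 to 6.99 CPM with vehicle and from 4.67 to 24.3 CPM with ox-LDL, with overlap. Without vehicle replicate 3 or 4 or ox-LDL replicate 9 or 11 the count of 5 was 2, 2, 3 and 2, and without ox-LDL replicate 10 it was 9.

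The MiT/TFE factors that drive lysosomal genes are known to bind the E-box TCACGTGA. These letters were in 1.12% of all symbols and in 7 of 34 lysosomal genes with a window (20.6%), which were Atp6v0d1, Atp6v1a, Cln3, Ctsa, Ctsd, Gla and Mcoln1. Of those only Gla was called. Only 2 of the 5 called lysosomal genes had a window, so the rest were not searched. The Gla window (chrX:134600956-134601255, minus strand) is shown because it holds the E-box at 2 places, 228 and 195 bases before the start, in capitals.
Gla: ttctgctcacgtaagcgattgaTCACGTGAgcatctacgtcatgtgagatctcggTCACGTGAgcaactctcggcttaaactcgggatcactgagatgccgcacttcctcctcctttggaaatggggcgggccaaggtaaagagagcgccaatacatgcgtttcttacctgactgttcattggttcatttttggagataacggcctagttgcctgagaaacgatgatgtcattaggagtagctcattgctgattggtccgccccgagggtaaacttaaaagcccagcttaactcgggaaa

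Of 31 genes of endoplasmic reticulum and integrated stress, 5 rose and none fell, with a median of 0.27: the chaperones Hspa5 (0.61 ± 0.11, adjusted p = 0.024) and Hsp90b1 (0.45 ± 0.10, adjusted p = 0.0481), the disulfide isomerases Pdia4 (0.51 ± 0.11, adjusted p = 0.0391) and Pdia6 (0.59 ± 0.12, adjusted p = 0.0306), and Slc3a2, the heavy chain of amino acid transporters (0.53 ± 0.09, adjusted p = 0.0176). Hspa5 measured 508 CPM in the lowest vehicle library, a median of 585 and 767 in the highest, and 981, 791, 1029, 773 and 859.6 CPM with ox-LDL, and the lowest ox-LDL library was barely above the highest vehicle library. Atf4, the factor of the integrated stress response, gave -0.12 ± 0.18 (adjusted p = 0.797). With vehicle replicate 3 or 4 or ox-LDL replicate 7 or 11 left out, no member of this list was called, against 1 without ox-LDL replicate 8 or 9 and 2 without vehicle replicate 1 or 6.

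Of 21 haem and iron genes 2 rose, and both are red-pulp macrophage genes: Slc40a1 (ferroportin, the iron exporter), by 0.66 ± 0.11 (SE; adjusted p = 0.0115), and Spic, the factor needed for those macrophages, by 0.55 ± 0.12 (SE; adjusted p = 0.0376). Slc40a1 measured 671 CPM in the lowest vehicle library, a median of 914 and 1073 in the highest, and 1574, 1449, 1510.2, 1219 and 1166 CPM with ox-LDL, apart, while Spic overlapped. Hba-a1 transcripts differed by 0.15, 0.61 and 0.23 in the erythroid-low, erythroid-high and neutrophil-high sets, and a link with Slc40a1 or Spic was not tested. Macrophage markers summed to 7724 to 13070 CPM with vehicle and 8308 to 11986 CPM with ox-LDL, and 3 of 22 rose (Slc40a1, Spic and Msr1). The list as a whole was mixed, with 13 positive and 9 negative values and a median of 0.06. That count of 3 was 0 without vehicle replicate 4 or ox-LDL replicate 7, and 1 without vehicle replicate 3 or ox-LDL replicate 9 or 11.

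Angptl2 (ENSMUSG00000004105; chromosome 2, 33216069 to 33247717), an angiopoietin-like secreted protein, measured 3.16 CPM in the lowest vehicle library, a median of 6.04 and 9.59 in the highest, and 11.0, 20.3, 19.8, 32.9 and 34.5 CPM with ox-LDL, a change of 1.82 ± 0.26 (SE; adjusted p = 0.0051). Ptgr1 (ENSMUSG00000028378; chromosome 4, 58965439 to 58987119), a reductase of prostaglandins and leukotriene B4, measured 11.5, 8.22, 20.6, 11.99, 52.7 and 55.9 CPM in vehicle replicates and 24.3, 59.1, 45.6, 102 and 158 CPM in ox-LDL replicates, a change of 1.44 ± 0.17 (SE; adjusted p = 0.0019). Angptl2 separated the treatments over all 11 libraries, whereas Ptgr1 was higher in the neutrophil-high set of either treatment and separated them only within sets. Ednrb, the endothelin B receptor, rose by 1.81 ± 0.21 (SE; adjusted p = 0.00158) and Cav1, caveolin-1, by 1.23 ± 0.18 (SE; adjusted p = 0.00671). The fungal pattern receptor Clec4n (dectin-2) rose by 1.06 ± 0.15 (SE; adjusted p = 0.0054), and ran from 367 to 497 CPM with vehicle and from 675 to 1236 CPM with ox-LDL, without overlap. The ubiquitin ligase gene Rnf128 rose by 1.09 ± 0.13 (SE; adjusted p = 0.00249), the adaptor Lat2 by 1.09 ± 0.15 (SE; adjusted p = 0.0051) and the opioid precursor Penk by 1.12 ± 0.21 (SE; adjusted p = 0.0256). Ppbp, the platelet chemokine, rose by 1.20 ± 0.25 (SE; adjusted p = 0.0365), was 31.4 CPM in ox-LDL replicate 10 against at most 15.2 elsewhere, and was the only called gene of 13 platelet markers. A positive value was found in 11 of the 13, with a list median of 0.53. Platelet markers summed to 56.9 to 126 CPM with vehicle and 63.7 to 201 CPM with ox-LDL, with replicate 10 the highest, and their part in the Ppbp result was not tested.

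Among 33 cytokines and chemokines 2 rose, Ccl2, which recruits monocytes, by 1.17 ± 0.17 (SE; adjusted p = 0.00671), and Il1a by 0.88 ± 0.19 (SE; adjusted p = 0.0401), and the list median was -0.15. Il1a overlapped between treatments, at 2.46 to 19.5 CPM with vehicle and 6.43 to 24.8 CPM with ox-LDL. Its call was lost in 12 of 20 alternatives. Il1b gave -0.27 ± 0.13 (adjusted p = 0.332) and Tnf -0.30 ± 0.19 (adjusted p = 0.475). Of 27 matrix and protease genes tested 5 were called higher and none lower, with a list median of 0.05. The 5 include Mmp8, which helped to define the sets, so its call is not read as a test. Besides Mmp8 they were Mmp12, Mmp13 (0.83 ± 0.17, adjusted p = 0.0329), Spp1 and Sdc1, a heparan sulfate proteoglycan (0.95 ± 0.15, adjusted p = 0.00964). Mmp13 lost its call in 12 of 20 alternatives. Sdc1 was also the only call of 51 macropinocytosis and ruffling genes and of 9 plasma cell markers.

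Of 52 interferon-response genes tested, 10 fell (19.2%, beside 0.409% of all genes tested) and none rose. A negative value was found in 44 of the 52, with a list median of -0.32, and in 9408 of all 18567 genes tested. The 10 were Oasl2, Oas3, Ifit3, Irf7, Zbp1, Rtp4, Ifi27l2a, Ifi211, Trim30a and Trim30d. Oasl2 (ENSMUSG00000029561; chromosome 5, 114896936 to 114912234), an oligoadenylate synthetase-like antiviral gene, measured 19.7, 16.7, 29.0, 29.1, 42.3 and 39.9 CPM in vehicle replicates 1 to 6 and 11.6, 12.2, 13.7, 19.6 and 21.8 CPM in ox-LDL replicates 7 to 11. The treatments overlapped over the 11 libraries and separated within each set, with differences of -0.62, -1.14 and -0.98 and a change of -0.96 ± 0.12 (SE; adjusted p = 0.00299). Zbp1 (ENSMUSG00000027514; chromosome 2, 173206612 to 173218923), a sensor of Z-form nucleic acids, measured 9.48 CPM in the lowest vehicle library, a median of 10.2 and 11.4 in the highest, and 6.90, 5.63, 6.19, 6.00 and 5.77 CPM with ox-LDL, all under the vehicle libraries, a change of -0.75 ± 0.13 (SE; adjusted p = 0.0144). Irf7, the factor that amplifies interferon responses, ran from 23.7 to 35.6 CPM with vehicle and from 12.9 to 21.97 CPM with ox-LDL, apart, and changed by -0.74 ± 0.14 (SE; adjusted p = 0.0288). Rtp4, induced by type I interferon, changed by -0.93 ± 0.17 (SE; adjusted p = 0.023) and Oas3 by -1.24 ± 0.24 (SE; adjusted p = 0.0258). Ifit3 was low, 5.37 to 9.85 CPM with vehicle and 1.07 to 4.99 CPM with ox-LDL, may share reads with its copy Ifit3b, and changed by -1.05 ± 0.24 (SE; adjusted p = 0.049). Isg15 and Ifit1, standard members of this programme, did not pass (-0.44 ± 0.17, adjusted p = 0.226, and -0.35 ± 0.18, adjusted p = 0.386). The count of 10 was 1 without vehicle replicate 3 or 4, 4 without vehicle replicate 6 and 2, 3, 2 and 5 without ox-LDL replicates 7, 8, 9 and 11. It was 7 in the 7 libraries outside the neutrophil-high set and 1 in the 8 outside the erythroid-low set.

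Interferon-stimulated genes are known to carry an interferon-stimulated response element, searched here on both strands as its core, a pair of GAAA blocks with 2 letters between them. The letters were in 3.99% of all symbols, in 26 of 41 list members with a window (63.4%) and in 5 of the 7 called members with one, Ifi211, Ifit3, Oas3, Trim30a and Trim30d. The list was written from genes known to respond to interferon, so its share describes the list and not the response to ox-LDL. Of 60 genes that fell and had a window 9 held the letters (15%), and of 90 that rose 4 did (4.44%). Windows of Oas3 (chr5:120777610-120777909, minus strand) and Ifit3 (chr19:34583279-34583578, plus strand) are shown because they hold the element within 160 bases before the start, in capitals, at 1 place in Oas3 and 2 in Ifit3.
Oas3: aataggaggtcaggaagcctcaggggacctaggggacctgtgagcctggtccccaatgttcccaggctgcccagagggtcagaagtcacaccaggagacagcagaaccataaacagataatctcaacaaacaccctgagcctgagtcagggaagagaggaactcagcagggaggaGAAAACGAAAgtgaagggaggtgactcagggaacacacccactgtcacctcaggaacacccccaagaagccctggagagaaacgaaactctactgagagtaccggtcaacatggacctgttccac
Ifit3: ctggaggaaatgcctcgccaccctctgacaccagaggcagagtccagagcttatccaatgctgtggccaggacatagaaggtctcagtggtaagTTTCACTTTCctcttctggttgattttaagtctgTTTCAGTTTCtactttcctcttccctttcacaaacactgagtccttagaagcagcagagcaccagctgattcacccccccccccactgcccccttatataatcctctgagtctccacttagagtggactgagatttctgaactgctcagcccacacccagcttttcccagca

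Among the 26 monocyte markers, 3 fell and 1 rose. Cx3cr1, the fractalkine receptor, measured 52.8, 43.1, 113, 103, 77.4 and 129 CPM in vehicle replicates and 32.9, 61.3, 56.2, 52.2 and 47.5 CPM in ox-LDL replicates, a change of -0.85 ± 0.14 (SE; adjusted p = 0.0133). Ccr2, the receptor for the chemokine encoded by Ccl2, changed by -0.51 ± 0.11 (SE; adjusted p = 0.048) and Spn (CD43, high on patrolling monocytes) by -0.77 ± 0.16 (SE; adjusted p = 0.0345). Treml4, a gene of patrolling monocytes and splenic dendritic cells, rose by 0.68 ± 0.13 (SE; adjusted p = 0.0306). Cx3cr1 and Ccr2 were also the 2 calls among 30 adhesion and migration genes. All 3 fallen genes overlapped between treatments over the 11 libraries and separated within each set. Of 20 alternatives, the call was lost in 13 for Ccr2, in 11 for Spn and in 2 for Cx3cr1, without vehicle replicate 3 and with 2 library sets.

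Ccnd1 (ENSMUSG00000070348; chromosome 7, 144929931 to 144939925), cyclin D1, measured 30.1 CPM in the lowest vehicle library, a median of 40.9 and 53.6 in the highest, and 20.9, 11.4, 14.8, 23.5 and 17.4 CPM with ox-LDL, a change of -1.29 ± 0.18 (SE; adjusted p = 0.0051). Zfp217, a zinc finger transcription factor, measured 14.5 CPM in the lowest vehicle library, a median of 21.5 and 27.7 in the highest, and 10.3, 10.3, 6.24, 11.9 and 9.39 CPM, a change of -1.19 ± 0.18 (SE; adjusted p = 0.00887). For both genes all ox-LDL libraries were under all vehicle libraries. Spib, a transcription factor of B cells and plasmacytoid dendritic cells, ran from 80.4 to 152 CPM with vehicle and from 27.7 to 79.2 CPM with ox-LDL, apart, and changed by -1.19 ± 0.23 (SE; adjusted p = 0.0285). It was the only call among 18 B-cell markers, of which 17 had a negative value, with a list median of -0.28. Their sum ran from 882 to 2806 CPM with vehicle and from 821 to 2128 CPM with ox-LDL, and the part of B cells was not tested. Siglecf, a lectin of eosinophils, ran from 2.41 to 16.3 CPM with vehicle and from 1.49 to 5.22 CPM with ox-LDL, changed by -1.34 ± 0.19 (SE; adjusted p = 0.0051) and was the only call among 9 eosinophil markers. Apol7c, an apolipoprotein L gene of dendritic cells with a near-identical neighbour, Apol7a, changed by -0.41 ± 0.09 (SE; adjusted p = 0.042) and was the only call among 27 dendritic cell markers. The semaphorin Sema7a, the collagen receptor Mrc2, the RNA-binding genes Hnrnpa0 and Zc3h4, and Prrc2a, Pnck, Nat8l and Ly6i fell by between 1.04 and 1.43 on the log2 scale. Their adjusted p ran from 0.0106 to 0.048, and only Mrc2 did not overlap between treatments. Of 20 alternatives, the call was lost in 12 for Sema7a, Zc3h4 and Prrc2a and in 11 for Pnck. It was lost in 2 to 8 for the others.

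No member was called among the MHC class II and costimulation genes (18 tested), glycolysis and hypoxia (28), oxidative phosphorylation (28), cell cycle (30), or the markers of T cells (18), NK cells (13), basophils and mast cells (7), stroma (8) and endothelium (11). Over all genes tested 1.09% were called, and at that share lists of this size would often hold none. The cyclin genes Ccnd1 and Ccnd2, both called lower, are not in the cell cycle list. Cd74, the class II invariant chain, ran from 13559 to 19325 CPM with vehicle and from 11006 to 20500.3 CPM with ox-LDL.

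**Figure D5:**
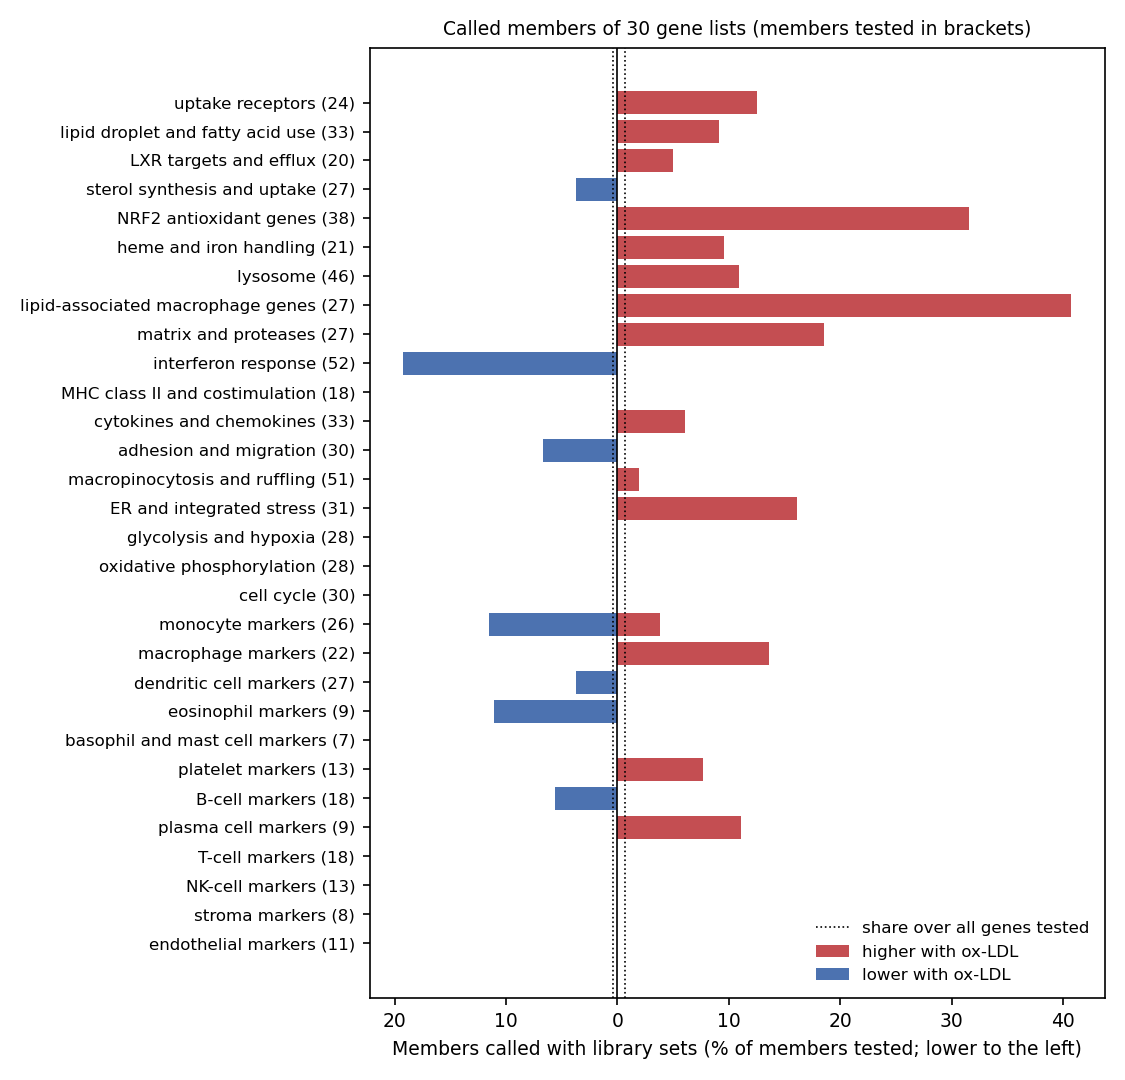
Share of tested members called higher (to the right) or lower (to the left) with ox-LDL, in percent, for the 30 gene lists that did not define the library sets, with members tested in brackets. The bar for matrix and proteases counts Mmp8, which is also in a list that defined the sets. Dotted lines mark the shares over all genes tested, 0.684% and 0.409%, and the lipid-associated, antioxidant and interferon lists reach furthest from them.

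The test of whether the ox-LDL effect differed between macrophages and monocytes called 11 of 17466 genes (0.063%), 1 higher (0.00573%) and 10 lower (0.0573%) in macrophages, while 7.22% had an unadjusted p under 0.05, and of the genes named by rule only Zfp217, whose macrophage effect exceeded the monocyte effect by 1.21 ± 0.22 (adjusted p = 0.0354). Zfp217 changed by 0.01 (adjusted p = 0.983) in macrophages, and its test of difference was lost in 9 of 15 alternatives, among them those without vehicle replicate 1, 3, 4, 5 or 6 or ox-LDL replicate 8, 9 or 11. The 2 comparisons share no library. In macrophages 342 of 14543 genes were called (2.35%), 142 higher (0.976%) and 200 lower (1.38%). Of the 127 genes that rose in monocytes 28 rose in macrophages (22% of the monocyte genes and 19.7% of the macrophage ones), and of the 76 that fell 14 fell (18.4% and 7%). Only 123 of the 127 and 60 of the 76 were tested in macrophages, and of those 22.8% and 23.3% were called in the same direction there. The shared increases included Cd36, with 0.75 (adjusted p = 0.0013), Akr1b8, with 0.48 (adjusted p = 0.0356), Srxn1, with 0.63 (adjusted p = 0.00146), and Abcg1, with 0.94 (adjusted p = 7.47e-05). The shared decreases included Oasl2, with -1.19 (adjusted p = 0.000155), Rtp4, with -1.51 (adjusted p = 0.000634), Srebf2, with -0.69 (adjusted p = 0.00161), and Cx3cr1, with -1.58 (adjusted p = 0.0414). Plin2 and Mmp12 gave 0.21 (adjusted p = 0.312) and 0.11 (adjusted p = 0.928) in macrophages, and the difference from monocytes was -0.96 ± 0.19 (adjusted p = 0.0655) and -1.20 ± 0.39 (adjusted p = 0.442). The test of difference used no library sets, unlike the monocyte changes given above, and called 45 genes with monocyte sets as an added factor. Without sets, a difference between the cell types was not shown for Plin2 or Mmp12. Rn7sk and Gm24447 were the only genes called in opposite directions.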

How the data were processed

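Polyadenylated RNA of 22 mouse libraries was sequenced after amplification with a low-input kit, per the labels' protocols. The submitters' processing notes name STAR 2.7.9a, Subread featureCounts 2.0.3 and the GRCm38 build. The strand setting is not given in the sources used here, so overlapping antisense genes may share reads. The authors deposited whole-number counts per gene and, beside them, TPM values, which were used only to compare levels between genes. The tables hold 55487 genes, and 55141 matched by identifier to a mouse gene annotation. No library was left out.

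Counts were tested with edgeR 4.0.16 (R 4.3.3; TMM factors, filterByExpr, quasi-likelihood test, Benjamini-Hochberg adjustment over all genes tested, threshold 0.05), over the 11 monocyte libraries, without and with the library set as a factor. The difference between cell types was an interaction term over all 22 libraries. The SE of an edgeR change was derived from its test, as the absolute log2 fold change divided by the square root of the F value. CPM values are TMM-scaled. Differences within a set are of mean log2(CPM + 0.5). The scripts were tested on simulated counts. Alternatives were other scalings, no filter, DESeq2 1.42.0, voom in limma 3.58.1, other codings of the sets, subsets of libraries and leaving out each library.

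The comparison, 38 gene lists and library sets were chosen with earlier results of these data known. Named genes were those called without sets, the 15 highest and 15 lowest called with sets (mean of at least 5 CPM, same sign in each set, assigned name), up to 4 called members per list by p or else the 2 most abundant, and the 4 most abundant of each list that defines the sets. Named outside this rule, after their values were seen, were the cell-type checks, the members that complete a list's called genes, known genes that did not pass, the holders of promoter motifs, and Prdx1, Gpnmb, Lgals3, Irf7, Hsp90b1, Mmp8, Lcn2, Clec4d, Padi4 and Fpr1. Promoter sequences are from RefSeq (GRCm38.p6). Some list members are not reported here by name.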

Additional observations from a re-analysis of the deposited data

Results flagged for a closer look

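In 266 checks of a group's highest or lowest library, 15 values lay far from the rest of their group (Dixon's gap criterion), where chance gives about 1 in 20. Ox-LDL replicate 10 was far above the other ox-LDL libraries in Mpo (40.2 CPM), Elane (16.7 CPM), Sema7a (11.4 CPM), Spn (18.5 CPM) and Slc4a1, the red cell anion exchanger (10.9 CPM). Vehicle replicate 2 was high in Mpo (2.94 CPM), Hspa5 (767 CPM) and the replication gene Mcm6 (89.3 CPM). Vehicle replicate 5 was high in the promyelocyte genes Elane (5.44 CPM) and Ms4a3 (3.14 CPM), vehicle replicate 6 in Ednrb (19.9 CPM) and Srxn1 (271 CPM), and vehicle replicate 1 in Lpl (357 CPM) and the collagen gene Col1a1 (1.85 CPM). Vehicle replicate 4 was low in Atp6v1c1 (168 CPM). The difference in ox-LDL effect between cell types passed its interaction test for Zfp217, with a macrophage minus monocyte value of 1.21 on the log2 scale.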

How the results depend on the processing

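No paired analysis was possible because the vehicle libraries carry numbers 1 to 6 and the ox-LDL libraries 7 to 11, so no number is shared. Without library sets, the 4 calls became 9 with no filter on low counts, 161 with DESeq2, 7 with voom and 259 with 1 fit over all 4 groups. The count was 0 in the 7 libraries low in neutrophil transcripts and 0 in the 4 high ones, and 0 to 8 with 1 library left out. With library sets, the 203 calls became 933 with no filter, 993 with DESeq2 and 108 with 2 sets. In subsets chosen after the data were seen the count was 334 in the 7 libraries low in neutrophil transcripts and 36 in the 8 outside the erythroid-low set. It ran from 29 to 598 with 1 library left out, and was 171, 153, 249 and 172 with other size factors, total counts, voom and numeric covariates. The 11 genes that differed between cell types became 60 with DESeq2, 45 with monocyte sets as an added factor, and 1 to 44 with 1 library left out. The causes were not tested. Of the values for single genes and lists under the alternatives, 2028 kept their side of the threshold or stayed close to the main count, 357 lost the call, 4 gained it and 82 counts moved. No called value changed sign, but 102 of 2271 single-gene fold changes did, all in genes that were not called. Only 1 ox-LDL library lies in the erythroid-low set, so its within-set differences have no spread on that side. Genes of a few CPM have the fewest counts behind their values.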

Other observations

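The genes in this paragraph were picked out after their values were seen and are given as values only. Actb, the cytoplasmic actin often used as a reference gene, measured 20446, 13218, 21094, 20275, 20757 and 23343 CPM in vehicle replicates 1 to 6 and 11342, 11794, 7805, 17384 and 14776 CPM in ox-LDL replicates 7 to 11, a change of -0.71 ± 0.15 (SE; adjusted p = 0.0371) within sets. Its sign was the same with size factors of the DESeq2 type (-0.72) and with total counts (-0.75). Txnip, a glucose-responsive inhibitor of thioredoxin, changed by -0.99 ± 0.18 (SE; adjusted p = 0.0218), and Ccnd2, cyclin D2, changed by -0.68 ± 0.11 (SE; adjusted p = 0.00964), beside the fall of Ccnd1. Gdf15, a stress-induced hormone, rose by 0.92 ± 0.15 (SE; adjusted p = 0.00983). The endolysosomal channel genes Mcoln2 and Mcoln3 changed by 0.86 ± 0.18 (SE; adjusted p = 0.0371) and 1.63 ± 0.34 (SE; adjusted p = 0.0362), the protease gene Lgmn by 0.53 ± 0.12 (SE; adjusted p = 0.049) and the small GTPase gene Rab7b by 0.84 ± 0.13 (SE; adjusted p = 0.00887). Tlr9, the endosomal DNA receptor, changed by -0.95 ± 0.20 (SE; adjusted p = 0.0351).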
